A study of Mus musculus with 16 samples.

Results

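The expression of *Nfe2l2*, which encodes the transcription factor NRF2, of *Keap1*, which encodes its inhibitor, and of 8 enzymes that NRF2 activates (*Nqo1*, *Hmox1*, *Gclc*, *Gclm*, *Txnrd1*, *Srxn1*, *Gsr* and *Gpx2*) was examined in mouse mammary tumors. These 10 genes were chosen by name as members of the antioxidant response with no measured value in the rule, although earlier results of these data were known when the set was drawn up. All 10 were found among the 23609 genes of the table, and all 10 belong to the 21034 genes with a mean normalized value of at least 10, which were tested. The tumors came from MMTV-PyMT mice, in which the MMTV promoter drives the polyoma middle T oncogene in the mammary epithelium. Both groups carried this transgene and neither was treated. The wildtype x PyMT tumors came from mice with intact *Resf1*, and the gene trap x PyMT tumors came from littermates heterozygous for a trap in *Resf1* (*Resf1* +/-). The trap was inserted in the first exon, on a C57BL/6 background, and the mice were crossed to FVB MMTV-PyMT animals. Each trap carrier therefore inherited 1 intact allele, and whether its tumor kept that allele was not examined. RNA-seq values of 5 wildtype and 5 gene trap tumors were used, from 16 tumors in the labels, 8 per group. Ages were not given in the sources used here.

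NRF2 is held in the cytoplasm by KEAP1, which presents it to a CUL3 ubiquitin ligase for degradation. Oxidants and electrophiles modify KEAP1, and NRF2 then accumulates, pairs with small MAF proteins and binds antioxidant response elements in the promoters of genes for glutathione synthesis, thioredoxin reduction, quinone detoxification and heme breakdown. Because this control acts on the protein, the mRNA of *Nfe2l2* is a poor guide to NRF2 activity, and the mRNAs of its targets are commonly read in its place.

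The sequence that NRF2 and small MAF proteins bind was searched for in the promoters of the members as the core motif TGACNNNGC on both strands, where N is any base. The RefSeq windows of the GRCm38.p6 build, from 250 bases before to 50 bases after each start, were available for 7 of the 10 members. Of these, 4 (57.1%) held a match, compared with 3781 of 27025 genes with a window in the table (14.0%), 2029 of 12165 tested genes (16.7%) and 20 of 84 other antioxidant pathway genes (23.8%). Counted by window, since a gene can have several starts, 4 of 9 windows of the members (44.4%) and 4071 of all 32851 (12.4%) held a match. The matches are shown to place the searched letters relative to each gene's start, with the 9 bases of the match in capitals and 10 bases on either side, and the coordinates given are those of the whole printed stretch of 29 bases. Each is written in the direction of the gene's transcription, so a match on the opposite strand appears as its reverse complement.
Nfe2l2: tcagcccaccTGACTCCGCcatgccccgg
Gclm: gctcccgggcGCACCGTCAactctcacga
Txnrd1: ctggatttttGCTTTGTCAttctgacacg
Srxn1: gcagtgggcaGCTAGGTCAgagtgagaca
In the *Nfe2l2* stretch (chr2:75704885-75704913, minus strand) the match began 240 bases before the start. Its letters read along the gene, whereas the other matches lay on the opposite strand. In the *Gclm* stretch (chr3:122245413-122245441, plus strand) the match began 134 bases before the start. In the *Txnrd1* stretch (chr10:82859104-82859132, plus strand) the match began 92 bases before 1 of its 3 listed starts. In the *Srxn1* stretch (chr2:152105542-152105570, plus strand) the match began at base 29 of the transcript. No match was found in the windows of *Keap1*, *Nqo1* and *Gpx2*, which says only that these letters are not in these windows.

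The values are counts that had been normalized between tumors, without their original depth, and they summed to between 31995078 and 42153593 per tumor. *Resf1* itself had a mean of 4099 ± 400 (SD, n = 5) in wildtype and 3516 ± 361 in gene trap tumors, a log2 fold change of -0.22 (SE 0.09) with an unadjusted p of 0.0313 in limma and 0.0635 in the exact permutation test. Adjusted over all genes by Benjamini-Hochberg, its limma p was 0.9997, and without gene trap replicate 2 the log2 fold change was -0.17. The 7 luminal epithelial markers (*Epcam*, *Krt8*, *Krt18* and others) were all measured and summed to between 74153 and 97993 in wildtype and between 76987 and 100688 in gene trap tumors. Among the 10 tumors, gene trap replicate 2 was the most unlike the rest, with a score of 91.8 on the first principal component against -18.6 to -4.79. In bulk tumors, fewer cells of a type and less RNA per cell cannot be told apart.

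No member differed between the genotypes after adjustment. By limma, 0 of the 10 had an adjusted p under 0.05 (each adjusted p = 0.9997), as was the case for 0.0% of all tested genes. At an unadjusted p under 0.05, 1 member, *Gpx2*, was called, and it was lower in gene trap tumors, a direction in which 0.956% of all tested genes were called. No member was called higher, against 1.32% of all tested genes. No member had groups that did not overlap, against 0.528% of all tested genes (0.266% with the gene trap group above and 0.261% with it below). The gene trap mean was higher for 4 members and lower for 6 on the log2 scale, with a median log2 fold change of -0.04, beside a median of 0.00 and quartiles of -0.09 and 0.10 for all tested genes. This split depended on the scaling and on single tumors, with 2 higher and 8 lower when each tumor was scaled to the same total and 6 higher and 4 lower without gene trap replicate 2.

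**Figure D1:**
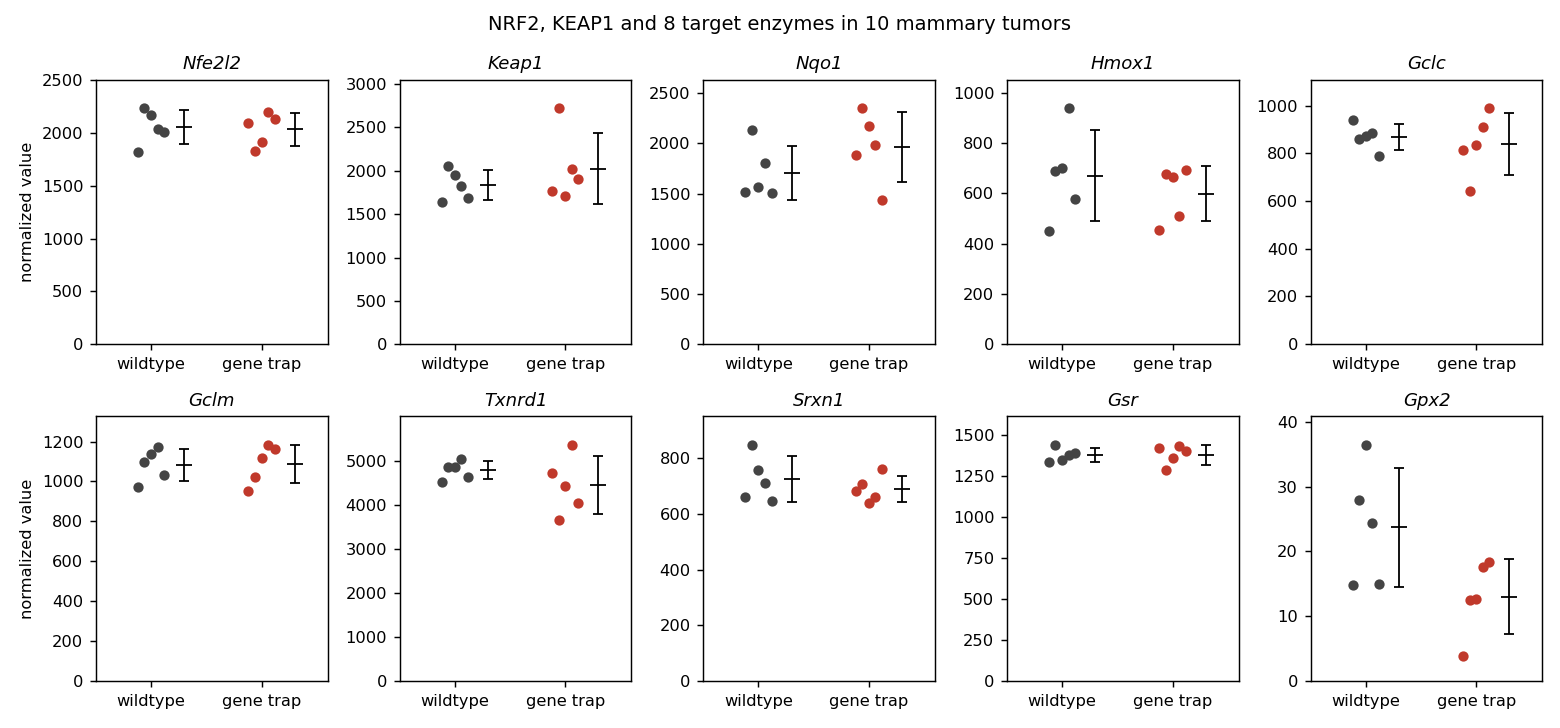
Normalized value (y axis, from 0) of each of the 10 genes in 5 wildtype x PyMT tumors (black) and 5 gene trap x PyMT tumors (red); points are tumors, placed from left to right by replicate number, and bars are the mean ± SD. The groups overlap in every panel, and the widest separation is that of *Gpx2*, with means of 23.7 and 13.0.

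**Figure D2:**
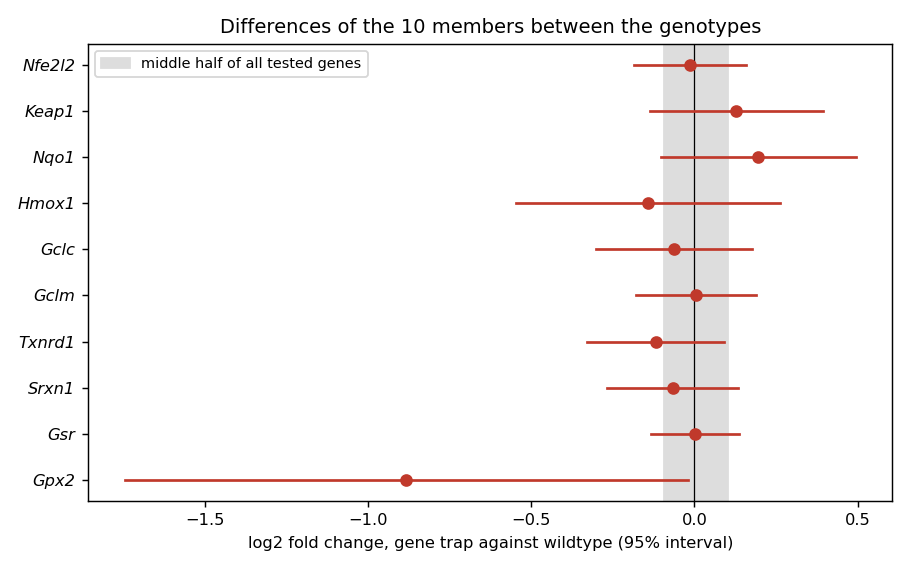
Log2 fold change of gene trap against wildtype tumors (x axis) for each of the 10 genes, with the 95% interval of the limma fit as a line; the grey band spans the lower and upper quartile of all tested genes, -0.09 to 0.10. Every interval but that of *Gpx2*, -1.75 to -0.02, includes 0.

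The regulator and its inhibitor were both well expressed. *Nfe2l2* had values of 1824, 2237, 2170, 2034 and 2011 in wildtype replicates 1 to 5 and of 2100, 1830, 1914, 2197 and 2135 in gene trap replicates 1 to 5. All 5 gene trap values lay within the wildtype range. Its log2 fold change was -0.01 (SE 0.08, exact permutation p = 0.857), and the 95% interval of the fold, 0.88 to 1.11, limits how far the group means could differ. *Keap1*, the sensor that targets NRF2 for degradation, had values of 1645, 2050, 1956, 1826 and 1682 in wildtype tumors and of 1765, 2724, 1709, 2022 and 1906 in gene trap tumors. The value of 2724 in gene trap replicate 2 was the highest of the 10, and the other gene trap tumors lay within the wildtype range. *Keap1* also shares 510 exonic bases with the antisense gene *Gm16754*, which had values of 96.5 to 143.5. The log2 fold change of *Keap1* was 0.13 (SE 0.12, exact permutation p = 0.429) with that tumor and 0.02 without it.

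*Nqo1* encodes the quinone reductase that is the most widely used readout of NRF2 activity. Its values were 1520, 2136, 1567, 1803 and 1508 in wildtype tumors and 1881, 2352, 2171, 1984 and 1433 in gene trap tumors. The highest and the lowest of the 10 values were both in the gene trap group, in replicates 2 and 5. The means were 1707 ± 268 and 1964 ± 347 (SD, n = 5 each), a log2 fold change of 0.20 (SE 0.14, 95% interval -0.10 to 0.49), which did not exceed the spread between tumors (p = 0.238, exact permutation test). Without gene trap replicate 5 the log2 fold change was 0.30, with an unadjusted limma p under 0.05, and without gene trap replicate 2 it was 0.13. *Hmox1*, the inducible heme oxygenase that breaks heme down to biliverdin, iron and carbon monoxide, had values of 449.6, 688.5, 699.3, 939.3 and 577.6 in wildtype tumors and of 454.1, 676.1, 664.1, 509.9 and 691.4 in gene trap tumors. It was highest in wildtype replicate 4, and no gene trap value left the wildtype range. Its log2 fold change was -0.14 (SE 0.19, exact permutation p = 0.516), and its 95% interval, -0.55 to 0.26, was the widest of the members other than *Gpx2*. The log2 fold change was -0.01 without wildtype replicate 4 and -0.28 without wildtype replicate 1.

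*Gclc* and *Gclm* encode the catalytic and the modifier subunit of glutamate-cysteine ligase, the rate-limiting step of glutathione synthesis. *Gclc* had values of 940.2, 861.1, 870.8, 883.6 and 788.1 in wildtype tumors and of 814.5, 640.8, 835.0, 912.3 and 989.8 in gene trap tumors, the latter group holding both the lowest and the highest of the 10. The modifier gene *Gclm* had values of 974.2, 1098, 1139, 1174 and 1034 in wildtype tumors and of 954.1, 1021, 1119, 1184 and 1161 in gene trap tumors. The groups overlapped for both subunits, with log2 fold changes of -0.06 (SE 0.11, exact permutation p = 0.659; 0.03 without gene trap replicate 2) for *Gclc* and 0.00 (SE 0.08, exact permutation p = 0.968) for *Gclm*. *Gclm* shares 244 exonic bases on the same strand with the pseudogene *Gm6061* and 296 bases on the opposite strand with *Gm17494*, and how reads from these stretches were assigned is not given in the sources used here, so its level is uncertain. *Gm17494* was more abundant than *Gclm*, at 2758 to 3379 over the 10 tumors, with a log2 fold change of -0.02.

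The enzymes that reduce thioredoxin, peroxiredoxins and glutathione were among the more evenly expressed genes. *Txnrd1*, the cytosolic thioredoxin reductase, had values of 4518, 4861, 4857, 5034 and 4620 in wildtype tumors and of 4721, 3640, 4424, 5357 and 4028 in gene trap tumors. Of the 5 gene trap tumors, 3 lay below the lowest wildtype tumor and 1 above the highest, and the SD was 658 in gene trap against 207 in wildtype tumors. Its log2 fold change was -0.12 (SE 0.10, exact permutation p = 0.294), and without gene trap replicate 4, its highest tumor, it was -0.19, with an unadjusted limma p under 0.05. Leaving out gene trap replicate 2, its lowest tumor, gave -0.05. *Srxn1*, which restores overoxidized peroxiredoxins, had values of 660.6, 848.6, 759.6, 712.5 and 648.0 in wildtype tumors and of 683.3, 709.4, 639.6, 661.5 and 759.9 in gene trap tumors. All but 1 of these gene trap values lay within the wildtype range, and the log2 fold change was -0.07 (SE 0.09, exact permutation p = 0.444), or -0.01 without wildtype replicate 2, its highest tumor. *Gsr*, the reductase that regenerates glutathione from its oxidized form, had values of 1334, 1442, 1351, 1382 and 1389 in wildtype tumors and of 1424, 1285, 1363, 1432 and 1405 in gene trap tumors. *Gsr* was the most constant member, with an SD over the 10 tumors of 0.05 on the log2 scale, and 0.223% of all tested genes had a smaller one. Its 95% interval of the fold, 0.912 to 1.10, was the narrowest of the 10.

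*Gpx2*, a glutathione peroxidase best known from the gastrointestinal epithelium, was the least abundant member and the one with the largest difference. Its values were 14.8, 28.0, 36.5, 24.4 and 14.9 in wildtype tumors and 3.91, 12.4, 12.7, 17.6 and 18.3 in gene trap tumors. All 5 gene trap tumors lay below the wildtype median and 3 of them below the lowest wildtype tumor, and the groups overlapped. The means were 23.7 ± 9.19 and 13.0 ± 5.76 (SD, n = 5 each), a log2 fold change of -0.88 (SE 0.40, 95% interval -1.75 to -0.02). The p was 0.0457 unadjusted and 0.9997 adjusted in limma, and 0.0714 in the exact permutation test, whose smallest possible value with 5 against 5 tumors is 0.00794. Gene trap replicate 1 held the lowest value, and without it the log2 fold change was -0.54. Without gene trap replicate 2 it was -0.90. In both cases the unadjusted limma p was above 0.05. *Gpx2* lies within the gene *Fntb* on the opposite strand and shares no exonic base with it, and *Fntb* had a log2 fold change of -0.12.

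The basal epithelial marker list, which had the smallest p of the 9 lists examined, moved in the same direction as *Gpx2*. The 5 basal epithelial markers (*Krt5*, *Krt14*, *Trp63*, *Acta2* and *Oxtr*), all measured and none at 0, summed to between 5298 and 7684 in wildtype tumors and between 4424 and 5980 in gene trap tumors. All 5 had lower gene trap means, and their sum differed by -0.30 on the log2 scale (exact permutation test, p = 0.0476, unadjusted for the 9 marker lists examined). No single marker of the list passed an unadjusted p of 0.05 in limma. The part of basal cells in the *Gpx2* values was not tested. The other 8 lists had exact permutation p values of 0.349 or more. Some of their sums were also lower in gene trap tumors, such as those of blood (globins and *Alas2*, -0.80 on the log2 scale) and adipocytes (-0.42). Others were higher, such as that of neutrophils (0.48). The 7 measured macrophage markers summed to between 8165 and 13700 in wildtype and between 8545 and 12241 in gene trap tumors.

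Levels were compared between members as the mean normalized value per kilobase of the longest protein-coding transcript, over the 10 tumors. *Txnrd1* had the highest level (1272 ± 136 per kilobase), followed by *Nqo1* (1182 ± 208), *Nfe2l2* (826 ± 60.2), *Keap1* (534 ± 86.8), *Gsr* (517 ± 18.3) and *Hmox1* (405 ± 92.9). Below them came *Srxn1* (252 ± 23.2), *Gclc* (249 ± 27.9), *Gclm* (194 ± 15.1) and, far lower, *Gpx2* (17.2 ± 8.60). The ranges of neighbors in this order overlapped except between *Nqo1* and *Nfe2l2* and between *Gclm* and *Gpx2*. *Txnrd1* exceeded *Nqo1* in 7 of the 10 tumors, *Keap1* exceeded *Gsr* in 5 and *Srxn1* exceeded *Gclc* in 5, so the order within these pairs is not clear from these tumors. The length also mattered, since *Nqo1* ranked above *Txnrd1* and *Gsr* above *Keap1* when all annotated exons were counted as the length. *Nqo1* was above 90.2% of tested genes with a length in level per kilobase, and *Gpx2* above 11.1%.

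The members were compared with each other across tumors, with and without gene trap replicate 2. Among 45 pairs, Pearson's r of the log2 values over the 10 tumors was positive in 30, with a median of 0.25, and 0 pairs had an adjusted permutation p under 0.05. Without gene trap replicate 2, 38 of the 45 were positive, with a median of 0.30. Over all 10 tumors the strongest pair was *Nfe2l2* and *Gsr*, with r = 0.82 (permutation p = 0.00359, adjusted 0.162) and Spearman's rho = 0.78 (permutation p = 0.0101, adjusted 0.302). Without the 2 tumors farthest from the median of *Nfe2l2*, r was 0.58. For the regulator and its inhibitor, *Nfe2l2* and *Keap1*, r was -0.03 over the 10 tumors (permutation p = 0.941, adjusted 0.972; rho = 0.54, permutation p = 0.116, adjusted 0.357). Without gene trap replicate 2, which had the highest *Keap1* and a low *Nfe2l2*, r was 0.91, and without the 2 tumors farthest from the median of *Nfe2l2* it was 0.90. The sign of this r therefore rests on 1 tumor, and all these values share the normalization between tumors.

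**Figure D3:**
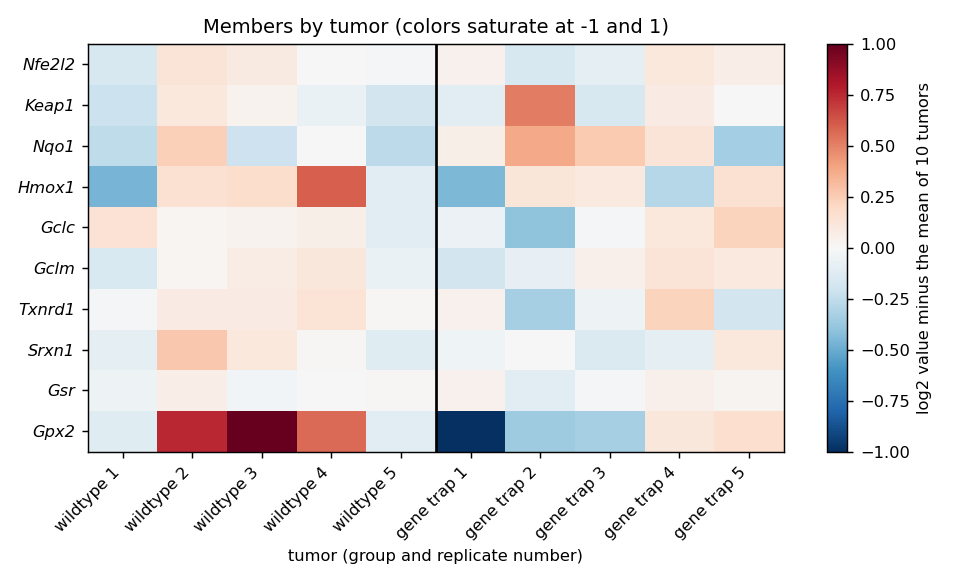
Log2 value of each of the 10 genes (rows) in each tumor (columns) minus the gene's mean over the 10 tumors, from blue (lower) to red (higher), with a black line between the 5 wildtype and 5 gene trap tumors. *Gsr* is nearly uniform, *Keap1* stands out in gene trap replicate 2, and *Gpx2* has the widest spread, with a log2 SD of 0.80.

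The wider antioxidant pathway was read from 9 lists with 96 genes beside the members, of which 93 were in the table and 90 were tested. By limma 0 of the 90 had an adjusted p under 0.05, 46 had higher and 44 had lower gene trap means, and at an unadjusted p under 0.05 1 was higher and 1 was lower, beside 2.28% of all tested genes in either direction. The median log2 fold change of the 90 was 0.01. None of the 90 had groups that did not overlap, against 0.528% of all tested genes, so a count of 0 is close to that share.

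Among the 13 partners and degraders of NRF2, which include the small MAF proteins, the repressor *Bach1*, the ligase scaffold *Cul3* and the adaptor *Sqstm1*, 8 were higher and 5 lower, with a median log2 fold change of 0.04. They ranged from -0.06 for *Gsk3b*, a kinase that marks NRF2 for KEAP1-independent degradation, to 0.16 for *Rbx1*, the RING subunit of the CUL3 ligase. *Rbx1* had a value of 2499 in gene trap replicate 2 whereas the remaining 4 of that genotype had 1534 to 1662, and its gene trap mean without that tumor was 1612, beside 1579 ± 79.4 in wildtype tumors.

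The 7 glutathione supply genes gave 3 higher and 4 lower, with a median log2 fold change of -0.06. They ranged from -0.40 for *Ggt1*, which cleaves extracellular glutathione (exact permutation p = 0.159), to 0.18 for *Ggct*, which acts in the recycling of glutamyl residues. Of the 5 other glutathione peroxidases, 3 were higher and 2 lower, from -0.18 for *Gpx8* to 0.28 for the secreted *Gpx3*. *Gpx3* had 1548 in gene trap replicate 5, and its gene trap mean without that tumor was 620.0, beside 616.4 in wildtype tumors. Of the 15 tested glutathione transferases, 8 were higher and 7 lower, with a median of 0.03 and *Mgst2* lowest at -0.35. *Gstp2* was the highest at 0.80, with values of 4.60, 4.16, 11.4, 11.2 and 15.5 in wildtype and of 16.8, 17.1, 12.2, 15.5 and 15.5 in gene trap tumors (unadjusted p = 0.0368, adjusted p = 0.9997 in limma, 0.0238 in the exact permutation test). *Gstp2* is a near-identical copy of *Gstp1*, so its low values are uncertain, and *Gstp1* had a log2 fold change of 0.09.

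The 12 genes of the thioredoxin and peroxiredoxin system gave 5 higher and 7 lower, with a median of -0.04. They contained the pathway gene with the smallest limma p, *Txnip*, although *Gstp2* had a smaller exact permutation p (0.0238). *Txnip* encodes the thioredoxin-interacting protein, which binds and inhibits thioredoxin and restrains glucose uptake. Its values were 13618, 13182, 19661, 17490 and 17866 in wildtype tumors and 12257, 13417, 10425, 13537 and 9516 in gene trap tumors. Of the gene trap tumors, 3 lay below the lowest wildtype tumor and all 5 below the wildtype mean of 16363, and the groups overlapped only because gene trap replicates 2 and 4 exceeded wildtype replicate 2. The means were 16363 ± 2831 and 11830 ± 1799 (SD, n = 5 each), a log2 fold change of -0.46 (SE 0.14, 95% interval -0.76 to -0.17). The p was 0.00529 unadjusted and 0.9997 adjusted in limma, and 0.0317 in the exact permutation test, so the difference did not pass over all genes. Without gene trap replicate 2 the log2 fold change was -0.51. The basal marker sum given above was also lower in gene trap tumors, with overlapping groups. The 3 measured adipocyte markers of 6 (*Adipoq*, *Fabp4* and *Cfd*), none at 0, all had lower gene trap means, and their sum differed by -0.42 on the log2 scale (exact permutation p = 0.484). That sum was 1912 to 7486 in wildtype and 969.3 to 4415 in gene trap tumors. Sums of blood (-0.80 on the log2 scale), endothelial (-0.11) and macrophage markers (-0.05) were lower too. Those of luminal, lymphocyte, fibroblast and neutrophil markers were higher, by 0.01 to 0.48. The part of any of these lists in the *Txnip* values was not tested. An antisense gene, *Gm15441*, shares 606 exonic bases with *Txnip*, and its values of 14.0 to 30.5 were far below those of *Txnip*. *Txn1*, which encodes thioredoxin itself, was highest in the same list at 0.20, with 7945 in gene trap replicate 2, whereas the remaining 4 of that genotype had 3801 to 4963. Its gene trap mean without that tumor was 4229, beside 4150 ± 161 in wildtype tumors.

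**Figure D4:**
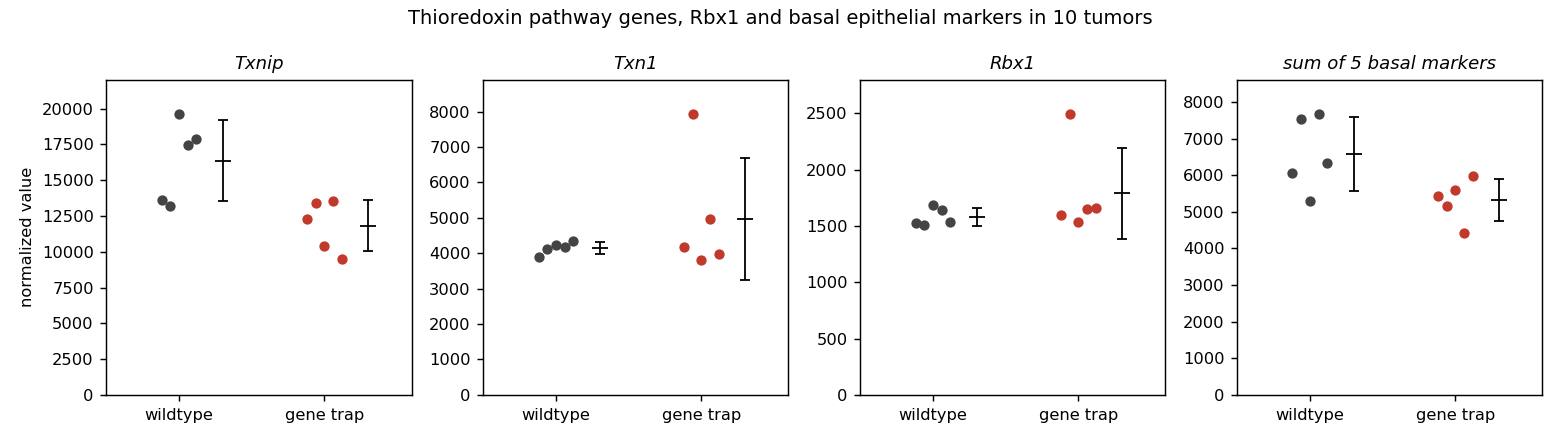
Normalized value (y axes, from 0) of *Txnip*, *Txn1* and *Rbx1* and the summed value of 5 basal epithelial markers in 5 wildtype (black) and 5 gene trap (red) tumors; points are tumors, placed from left to right by replicate number, and bars are the mean ± SD. *Txnip* has means of 16363 and 11830, and 1 gene trap tumor, replicate 2, carries the higher means of *Txn1* and *Rbx1*.

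Of the 16 tested genes for detoxification and export, 9 were higher and 7 lower, from -0.11 for the reductase *Akr1b10* to 0.42 for the aldehyde dehydrogenase *Aldh1a1* (exact permutation p = 0.611), whose gene trap mean was 109.1 without replicate 4, beside 127.4 in wildtype tumors. The 8 heme and iron genes gave 1 higher and 7 lower, with a median of -0.02. All lay between -0.12 for *Fech*, which inserts iron into protoporphyrin to make heme, and 0.03 for *Blvrb*, a biliverdin reductase. The summed globin and *Alas2* values, which mark blood in the tumors, were between 4813 and 64631 in wildtype and between 4217 and 22914 in gene trap tumors, and their part in the heme genes was not tested. The 10 genes that supply NADPH gave 6 higher and 4 lower, from -0.11 for *Pgls*, of the pentose phosphate pathway, to 0.24 for *Mthfd2*, of mitochondrial folate metabolism. The 4 superoxide dismutase and catalase genes gave 3 higher and 1 lower, from -0.17 for *Sod3* to 0.15 for the mitochondrial *Sod2* (exact permutation p = 0.0873).

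**Figure D5:**
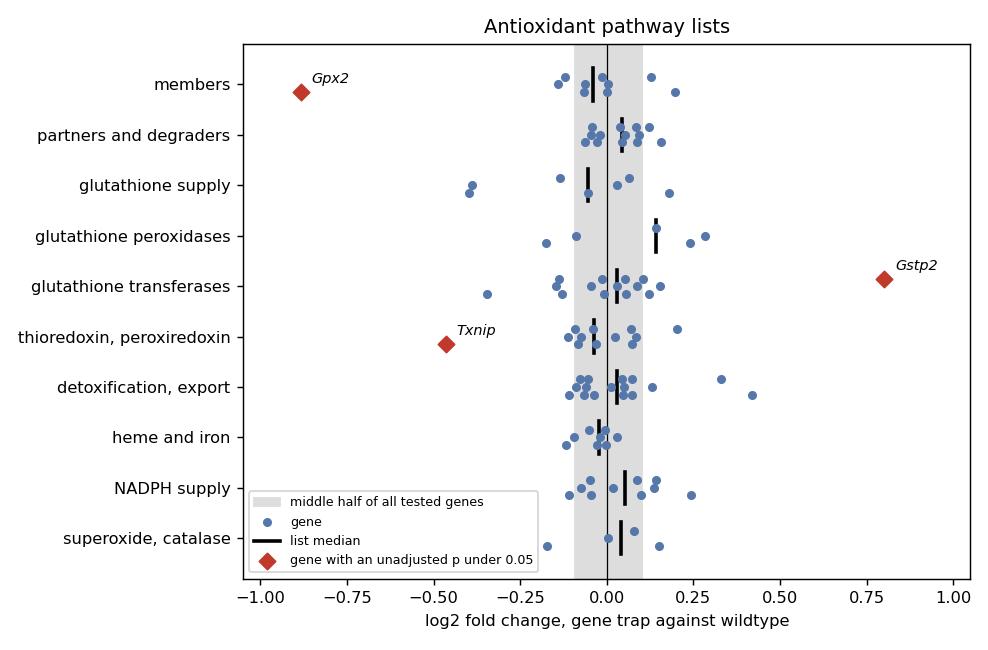
Log2 fold change of gene trap against wildtype tumors (x axis) for the 10 members and for the tested genes of 9 antioxidant pathway lists (rows); black ticks are list medians, red diamonds are genes with an unadjusted p under 0.05, and the grey band spans the quartiles of all tested genes. The list medians lie between -0.06 and 0.14, and the red genes are *Gpx2*, *Gstp2* and *Txnip*.

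Gene trap replicate 2 was also the extreme tumor for many pathway genes. Of the 90 tested pathway genes, 27 (30.0%) had their highest value in it, compared with 22.4% of all tested genes, and 6 (6.67%) had their lowest value in it, compared with 21.8%. The 27 genes had a median transcript length of 1.36 kilobases, and the other 63 of 2.30 kilobases. Length was compared among these pathway genes only, and its part in the pattern was not tested. Among the members, *Keap1* and *Nqo1* were highest and *Gclc*, *Txnrd1* and *Gsr* were lowest in this tumor.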

How the data were processed

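The authors deposited 1 table of normalized values per gene, a signal on a linear scale, made from total RNA (Trizol, stranded TruSeq libraries). The submitters' processing notes name Partek, STAR (version 2.7.8a), DESeq2 and the mm39 build; the counter and its strand setting are not given in the sources used here. Each tumor's median ratio to the geometric mean was 1.005 to 1.006, so the values were taken as scaled by median ratio. Whole reads could not be recovered, so the depth is unknown and no interval that needs it is given. Of 16 columns, 10 were matched to a labelled tumor and 6 were not used. Gene symbols were found for 22899 (97.0%) of 23609 IDs.

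On log2(value + 1), genes with a mean of at least 10 were compared by genotype alone in limma (3.58.1, under R 4.3.3), using empirical Bayes with a mean-variance trend, and p-values were adjusted by Benjamini-Hochberg over 21034 genes. Fold changes are on the log2(value + 1) scale, which understates those of low genes such as *Gpx2*. Single values were compared by two-sided exact permutation over 252 arrangements, and correlations with 100000 permutations (scipy 1.17.1). The groups came from littermates, but the labels do not say which tumors share a litter, so p-values measure the spread between these tumors. Transcript lengths and overlaps came from GENCODE mouse release 21 on an older build, used for these properties only. The fit was tested on simulated data.

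The members and lists were chosen with earlier results of these data known. Named were the members, *Resf1*, the highest and lowest gene of each pathway list, each pathway gene with an unadjusted p under 0.05, and the 5 genes most correlated with the target enzymes. Other examples were chosen after their values were seen. Alternatives were other pseudocounts, filters, scalings and weights, a replicate block, and leaving out each tumor.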

Additional observations from a re-analysis of the deposited data

Results flagged for a closer look

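Among 29 genes, the members, *Resf1* and the named pathway genes, 58 groups of 5 tumors were examined for a tumor whose gap to its nearest neighbor exceeded 0.71 of the group's range. In groups not chosen by their values, chance marks about 1 in 20, or 2.9 of 58. Here 4 were marked, all in gene trap tumors and none of them a member. Each was named as the highest gene of its list, a place that 1 high gene trap tumor can give. The chance rate therefore does not apply to them, and no conclusion is drawn from the count. *Txn1* in gene trap replicate 2 had a value of 7945, beside 3801 to 4963 in the other gene trap tumors. *Rbx1* in the same tumor had 2499, beside 1534 to 1662. *Aldh1a1* in gene trap replicate 4 had 681.5, beside 61.4 to 193.5. *Gpx3* in gene trap replicate 5 had 1548, beside 507.3 to 735.7.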

How the results depend on the processing

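Over 19 alternatives, limma gave 0 members and 0 of all tested genes with an adjusted p under 0.05, and 305 to 692 genes with an unadjusted one. The median log2 fold change of the members lay between -0.07 and 0.02, above 0 in 2 alternatives (without wildtype replicate 2 and without gene trap replicate 2). *Gclm* and *Gsr*, near 0 throughout, were above 0 in 12 of 19, *Nfe2l2* in 5 and *Gclc* in 1, and the other members kept their direction. *Gpx2* was removed by a minimum mean of 50. In the other 18 alternatives it stayed lower, -1.04 to -0.54, with an unadjusted p under 0.05 in 11, including 4 of 10 that left out 1 tumor; by quantile normalization p was 0.0655. *Txnip*, examined after seeing the data, lay between -0.54 and -0.39 with unadjusted p of 0.00128 to 0.0159. *Resf1* was -0.25 with scaling to the same total, -0.22 without the mean-variance trend and -0.18 with weights per tumor, each with an unadjusted limma p above 0.05. With 1 tumor left out it lay between -0.28 and -0.17, under 0.05 in 4 of 10; the cause was not tested. The median of the glutathione peroxidases was -0.06 without gene trap replicate 2 and -0.04 with weights. Scaling to the same total moved the median of all genes to -0.022.

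Same-numbered tumors were different animals, with correlations of their deviations between -0.156 and 0.149, so the numbers were not read as pairs. With replicate number as a block, 426 genes had an unadjusted p under 0.05 and 0 an adjusted one, *Resf1* was -0.22 and *Gpx2* -0.88, both with an unadjusted limma p under 0.05.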

Other observations

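The mean z score of the 8 target enzymes was highest in wildtype replicate 2 (0.81) and lowest in gene trap replicate 2 (-0.71), with means of 0.15 ± 0.63 in wildtype and -0.15 ± 0.48 in gene trap tumors (SD, n = 5 each). The 5 genes whose log2 values followed this score most closely over the 10 tumors were *Eefsec* (Pearson's r = 0.98), *Gid8* (0.97), *Chmp4b* (0.97), *Prmt1* (0.95) and *Scamp1* (0.95). Without gene trap replicate 2, r was 0.97 for *Eefsec* and 0.94 for *Scamp1*. These genes were picked as the closest of all tested genes, and their r is a description.

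*Gm6061*, the pseudogene that overlaps *Gclm* on the same strand, had the lowest log2 fold change of all tested genes, -2.59 (unadjusted p = 0.0744, adjusted p = 0.9997 in limma). Its values were 338.0, 710.8, 381.4, 485.7 and 587.0 in wildtype tumors and 244.8, 0.0001, 402.6, 120.6 and 280.4 in gene trap tumors. Gene trap replicate 2 was near 0, and the other gene trap tumors were at 120.6 to 402.6, overlapping the wildtype range. *Gclm* itself had a log2 fold change of 0.00.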
